A study of Mus musculus with 3 samples.

Results

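The oligoadenylate synthetases are a family of interferon-inducible genes, and 8 of them were followed here in mouse macrophages: Oas1a, Oas1b, Oas1c, Oas1g, Oas2, Oas3, Oasl1 and Oasl2. They were chosen by gene symbol, by a rule that uses no measured value, though with earlier results of these data known, and all 8 were found among the 55536 genes in the tables. The cells were bone-marrow-derived macrophages of strain C57BL/6J, grown from marrow precursors. They had received lipid A, the part of bacterial lipopolysaccharide that Tlr4 recognises, at 100 ng/ml for 12 hours, were then washed and kept for 12 hours, and received lipid A at 100 ng/ml again for 60 minutes. RNA of the cytosolic fraction was depleted of ribosomal RNA and sequenced in 3 libraries, each from 1 µg of RNA, which form the only group. The labels give sex and age as not collected and list the same donor entry for all 3 biological replicates without saying whether the cultures came from separate animals. The p-values therefore cover these samples only. Those of limma rest on the spread between the libraries, moderated over genes, and those of the chi-square test on counting error alone. Cells without lipid A, or with the first exposure alone, were not analysed here, and the values are therefore levels and not responses.

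Oligoadenylate synthetases bind double-stranded RNA and join ATP into short chains with 2'-5' links, called 2-5A. 2-5A acts as a second messenger of the antiviral response and is removed by phosphodiesterases. The genes are switched on by interferon through transcription factors, among them Stat2 and Irf9, that bind interferon-stimulated response elements, and in macrophages Tlr4 signalling itself leads to interferon-β. Oas1a and Oas1g encode active enzymes, Oas2 and Oas3 encode larger proteins built from repeated synthetase units, and the Oasl genes encode proteins that end in ubiquitin-like domains. Mouse Oasl1 lacks synthetase activity and is known to restrain translation of Irf7, and Oas1b is the gene of the flavivirus resistance locus, which carries a premature stop codon in C57BL/6 mice.

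All 8 genes lie on mouse chromosome 5 (mm10, GENCODE M21 annotation). The Oasl pair comprises Oasl2 (ENSMUSG00000029561.17) at chr5:114896936-114912234 and Oasl1 (ENSMUSG00000041827.15) at chr5:114923240-114937915, both on the plus strand. The second cluster begins 5.79 Mb further on and spans 191 kb. It holds Oas2 (ENSMUSG00000032690.16) at chr5:120730333-120749853, Oas3 (ENSMUSG00000032661.9) at chr5:120753098-120777661, Oas1c (ENSMUSG00000001166.17) at chr5:120800194-120812514, Oas1g (ENSMUSG00000066861.14) at chr5:120876142-120887613 and Oas1a (ENSMUSG00000052776.10) at chr5:120896256-120907521, all on the minus strand. Oas1b (ENSMUSG00000029605.16) at chr5:120812635-120824163 runs the other way, and 120 bases separate its start from that of Oas1c.

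The starts of these genes were searched for GAAANNGAAA, the core of the interferon-stimulated response element, on both strands of windows of 250 bases before to 50 bases after each start (RefSeq, GRCm38.p6). Of 32851 promoter windows of this length, 1131 (3.44%) held the motif. Windows were given for 6 of the 8 genes, and 4 of these held it. The stretches around the matches are shown because Oas1a and Oas1g carry the same pair of overlapping matches immediately upstream of their starts, on the strand of the gene. In Oas1a the matches cover positions -20 to -11 and -14 to -5 relative to the start, and in Oas1g positions -18 to -9 and -12 to -3. In Oas1c the pair found in Oas1a stands on the strand opposite to the gene, so that the line below shows its reverse complement. It lies between 7 and 22 bases before the annotated start of Oas1b, and Oas3 has a single match at positions -75 to -66. The windows of Oasl1 and Oasl2 held no match, which says only that these letters are not in those windows. Capitals mark the matches, and each line is written 5′ to 3′ on the minus strand, the strand of the 4 genes.
Oas1a, chr5:120907526-120907557: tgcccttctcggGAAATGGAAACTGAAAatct
Oas1g, chr5:120887614-120887643: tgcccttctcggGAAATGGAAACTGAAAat
Oas1c, chr5:120812601-120812640: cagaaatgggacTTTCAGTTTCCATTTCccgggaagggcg
Oas3, chr5:120777713-120777746: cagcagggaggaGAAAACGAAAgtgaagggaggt

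Expected counts on genes, which are estimated read counts, totalled 50807046, 53364168 and 46546422 in replicates 1, 2 and 3, and 3 counts correspond to 0.0590, 0.0562 and 0.0645 CPM, which scales counts to a fixed total per library, a floor that covers counting error only. The main scale is TPM, a fixed total per library shared out after correction for transcript length. The 7SL RNAs took 58.4%, 63.7% and 58.5% of TPM in replicates 1, 2 and 3, and nuclear protein-coding genes took 34.5%, 29.0% and 27.5%. Since the coding share differed, CPM and TPM rescaled over nuclear protein-coding genes are given beside TPM where libraries are compared. All 8 macrophage markers tested (Lyz2, Cd68, Csf1r and others) stood above 1 TPM. Defining markers of other cell types were tested against 1 TPM with limma at an adjusted p under 0.05. Of these, 0 of 5 for T cells and 0 of 4 for dendritic cells stood above it. For B cells 1 of 5 did, and for neutrophils 2 of 7. For stromal cells 0 of 4 passed, but 2 of these were not placed on either side of 1 TPM. The highest stromal marker, Col1a1, had 0, 2.53 and 1.28 TPM in replicates 1, 2 and 3. Stromal markers summed to 0.0600, 4.89 and 2.23 TPM in replicates 1, 2 and 3, and neutrophil markers to 7.83, 7.54 and 9.96 TPM, with Ly6g listed at 0. The RNAs Malat1, Neat1, Rn7sk and Kcnq1ot1, which reside mainly in the nucleus, were all highest in replicate 3. They summed to 27901, 27010 and 68714 TPM in replicates 1, 2 and 3, nearly all of it Rn7sk, with 27778, 26912 and 68232 TPM.

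All 8 synthetase genes were expressed, and their levels spanned a wide range. Oasl2, Oas3 and Oasl1 were highest, Oas1a followed, Oas1g and Oas2 were intermediate, and Oas1b and Oas1c were lowest. All 8 stood above 1 TPM, where 44.5% of the 20685 genes tested did (limma on log2(TPM + 1), Benjamini-Hochberg adjusted p under 0.05). Against 5 TPM, 6 of 8 passed the same test, but the share of all genes that did is not given here. None of the 8 stood below 1 TPM, where 50.4% of the genes tested did. Together they held 787, 550 and 539 TPM in replicates 1, 2 and 3, or 625 ± 140 (SD, n = 3), and 0.288%, 0.235% and 0.234% of the expected counts on genes.

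Among the genes for large synthetases, Oas3 far exceeded Oas2. Oas3, whose product is the long-chain synthetase that senses long double-stranded RNA, had 187, 132 and 120 TPM in replicates 1, 2 and 3. This was 146 ± 35.5 TPM (SD, n = 3), a level above that of 97.9% of the 14374 protein-coding genes detected (limma against 1 TPM, adjusted p = 2.8e-08). Oas2 had 20.7, 11.1 and 13.0 TPM in the same libraries, or 14.9 ± 5.11 (SD, n = 3; limma, adjusted p = 6.6e-06). No library of Oas2 came near any of Oas3, and the ratio of Oas3 to Oas2 in TPM was 9.01, 11.9 and 9.25 in replicates 1, 2 and 3. With the longest main transcript of the 8, at 4720 bases, Oas3 supplied 42.4% ± 0.994 of the family's expected counts but 23.3% ± 0.878 of its TPM (SD, n = 3).

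The Oasl genes were the other high pair. Oasl2, which in mice retains synthetase activity, had 201, 167 and 162 TPM in replicates 1, 2 and 3, or 177 ± 21.1 (SD, n = 3; limma, adjusted p = 1.2e-08). It exceeded 98.3% of the coding genes and made up 28.7% ± 2.70 of the family's TPM. Oasl1 had 187, 114 and 117 TPM, or 139 ± 41.3 (SD, n = 3; limma, adjusted p = 4.2e-08). Oasl2 was higher than Oasl1 in every library, by ratios of 1.08, 1.46 and 1.39, yet the ranges of the genes overlapped, since Oasl1 in replicate 1 stood above Oasl2 in replicates 2 and 3.

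The Oas1 genes split into a high and a low pair. Oas1a had 126, 84.8 and 82.2 TPM in replicates 1, 2 and 3, or 97.7 ± 24.6 (SD, n = 3; limma, adjusted p = 3.8e-08). Its near copy Oas1g had 51.2, 33.1 and 34.6 TPM, or 39.6 ± 10.1 (SD, n = 3; limma, adjusted p = 9.2e-08). Every library of Oas1a lay above every library of Oas1g, and the ratio was steady at 2.46, 2.56 and 2.38.

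Oas1b had 9.39, 5.10 and 5.98 TPM, or 6.82 ± 2.27 (SD, n = 3; limma, adjusted p = 3.6e-05), and exceeded 64.8% of coding genes. Oas1c, which is described as lacking synthetase activity, had 4.89, 3.83 and 3.56 TPM, or 4.09 ± 0.703 (SD, n = 3; limma, adjusted p = 6.4e-06). The divergent neighbours thus stood close to each other, with Oas1b higher in every library by ratios of 1.92, 1.33 and 1.68 and no overlap between their ranges. Of the other 4 mouse Oas1 paralogs, Oas1d, Oas1e and Oas1f were listed at 0 in all 3 libraries, and Oas1h had 0.0100 TPM in each from 1, 2 and 1 expected counts, below 1 TPM (limma, adjusted p = 3.0e-11).

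**Figure D1:**
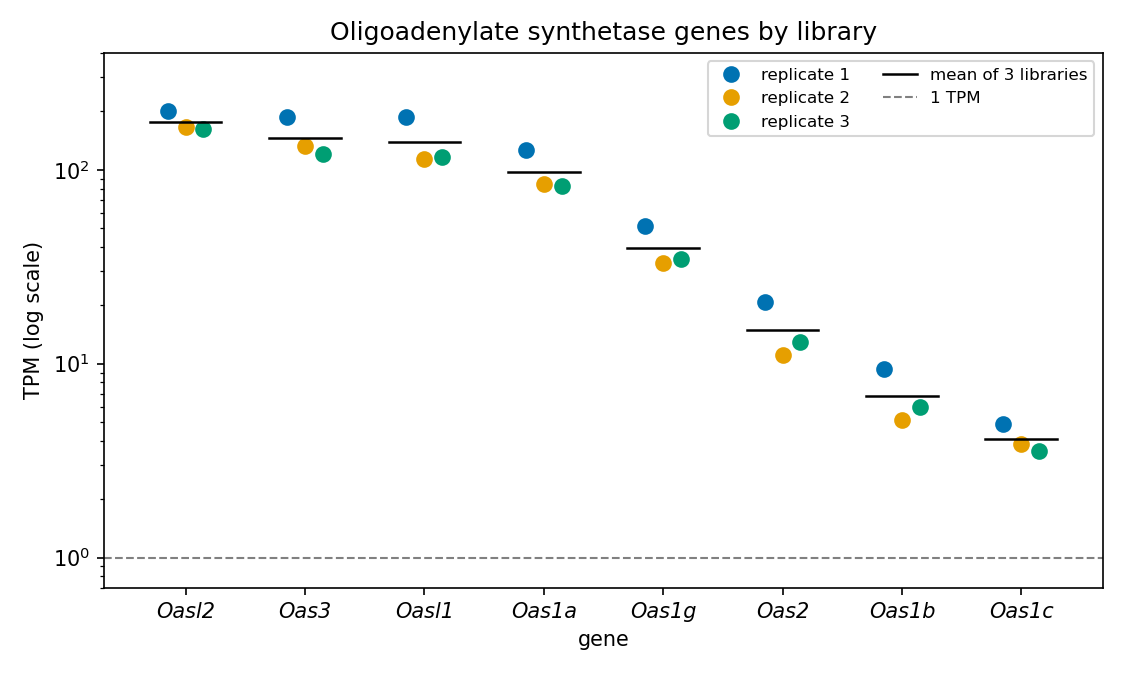
TPM on a log axis for the 8 synthetase genes, in order of their mean. Each point is 1 library, the bar is the mean of 3 and the dashed line is 1 TPM. Oasl2 leads at 177 TPM and Oas1c is lowest at 4.09 TPM, and replicate 1 is the highest point of each gene.

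In the order Oasl2, Oas3, Oasl1, Oas1a, Oas1g, Oas2, Oas1b, Oas1c, the first 4 were not separated from their neighbours by their ranges over libraries. The log2 ratio in TPM within a library averaged 0.29 ± 0.17 for Oasl2 over Oas3, 0.08 ± 0.11 for Oas3 over Oasl1 and 0.50 ± 0.07 for Oasl1 over Oas1a (SD, n = 3). Oas3 exceeded Oasl1 in 2 of 3 libraries, and the other 6 neighbouring pairs kept their order in all 3. From Oas1a downwards no ranges overlapped, with log2 ratios of 1.30 ± 0.05, 1.43 ± 0.14, 1.13 ± 0.01 and 0.70 ± 0.27 for the successive pairs.

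Genes at high levels and genes listed at or near 0 lay side by side in the cluster. Oas3, at 146 TPM, adjoins Oas2, at 14.9 TPM, and Oas1e, listed at 0, on the same strand. Oas1a and Oas1g, both well expressed, lie between Oas1h and Oas1d, which were at 0.0100 TPM and listed at 0.

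**Figure D2:**
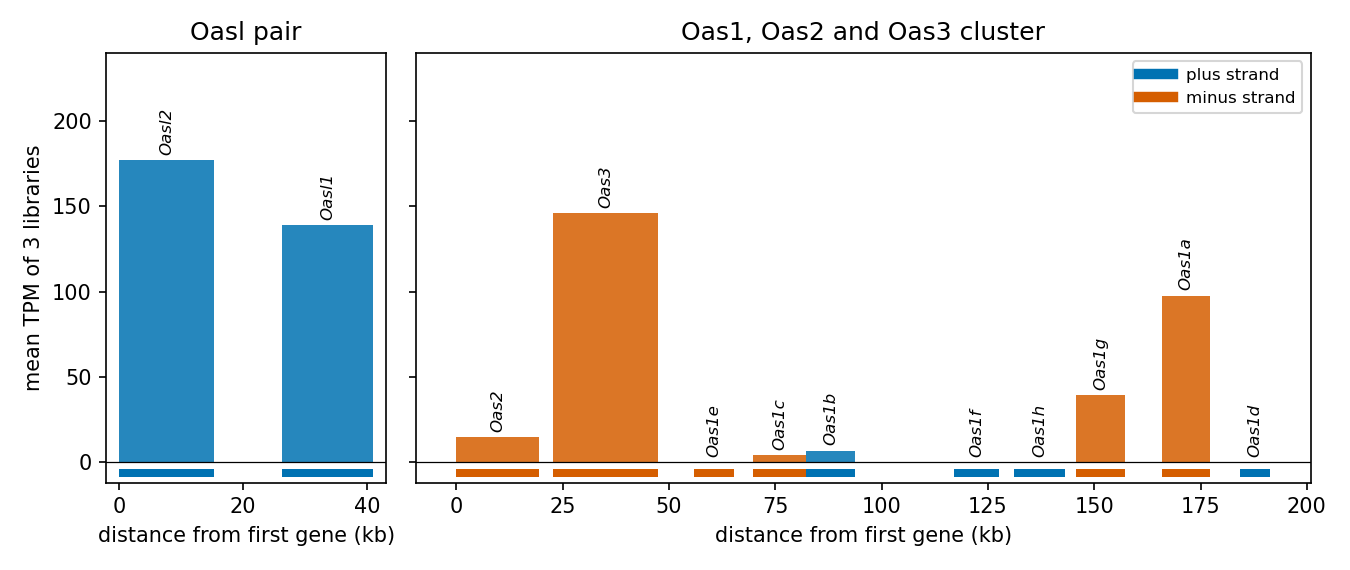
Mean TPM of 3 libraries for each annotated family gene, drawn as a bar over the gene's extent in kb from the first gene of the Oasl pair (left) and of the second cluster (right). Strips below 0 mark the extents, colours mark the strand, and Oas1d, Oas1e, Oas1f and Oas1h show strips with no visible bar.

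The division of reads between Oas1a and Oas1g is uncertain. Their main transcripts were identical at 97.5% of 1860 aligned bases, against 73.3% to 78.6% for the other pairs of expressed Oas1 genes. Of the stretches of 31 bases in the Oas1a transcript, 31.2% occurred in no transcript of another gene and 68.7% also occurred in Oas1g. The unique share was 34.6% for Oas1g, 73.2% for Oas1c and between 92.5% and 100% for the other 5. The posterior SD of the count, a measure of the assignment alone, was 29.6, 25.1 and 24.1 counts for both Oas1a and Oas1g in replicates 1, 2 and 3, next to 15764, 13002 and 11393 expected counts for Oas1a. The second transcript tables, made with another quantification, gave a ratio of Oas1a to Oas1g of 2.14, 2.24 and 2.03.

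Of 4 genes around the 2-5A pathway, all stood above 1 TPM, as did 44.5% of all genes tested. Abce1, a ribosome recycling factor, had 12.8, 12.3 and 11.7 TPM.

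Genes for enzymes that degrade 2-5A were lower. Akap7, an anchoring protein with a 2-5A phosphodiesterase domain, had 5.48, 4.94 and 4.45 TPM. Enpp1, an ectonucleotidase that can cleave 2-5A, had 2.68, 2.20 and 1.99 TPM, and Pde12, a 2'-phosphodiesterase, had 1.81, 1.69 and 1.50 TPM. In TPM all 3 were highest in replicate 1 and lowest in replicate 3, whereas in CPM all 3 were highest in replicate 2. After rescaling over nuclear protein-coding genes, Akap7 and Pde12 were highest in replicate 2 and Enpp1 in replicate 1.

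The replicates differed, and replicate 1 had the most synthetase RNA. In TPM all 8 genes were highest in replicate 1, as were 72.3% of the 7532 genes with a mean of at least 500 expected counts. In CPM all 8 were again highest in replicate 1, where 25.6% of those genes were. After rescaling over nuclear protein-coding genes 7 of 8 were, against 20.5% of those genes, and 7 of 8 were so in the second tables. The exception was Oasl2 in both cases, with 583, 576 and 591 rescaled TPM and 79.8, 84.3 and 75.7 TPM in the second tables. With bulk RNA, a difference in the number of responding cells and a difference in RNA per cell cannot be told apart.

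The size of the difference was tested against counting error alone by a chi-square test of expected counts. All 8 genes varied beyond it, as did 69.3% of the 13075 genes tested, so such variation was usual among genes at this depth. Without replicate 1, 5 of 8 varied, as did 51.6% of genes tested, and Oas1a (adjusted p = 0.79), Oasl2 (0.71) and Oas1g (0.053) did not pass. Without replicate 3, Oas1c did not pass (chi-square, adjusted p = 0.12). Of the 4 genes around the 2-5A pathway, Abce1 varied (adjusted p = 5.0e-06), and Pde12 (0.11), Enpp1 (0.10) and Akap7 (0.077) did not pass.

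The spread was widest for Oas2 and narrowest for Oasl2. The range of log2(TPM + 1) over libraries had a median of 0.62 over the 8 genes, between 0.31 for Oasl2 and 0.85 for Oas2, against a median of 0.30 over the 7532 genes. In CPM the median was 0.36, against 0.23, and Oas2 had 106, 65.6 and 80.6 CPM in replicates 1, 2 and 3. Its CPM range of 0.68 was wider than that of 95.2% of those genes. Oasl2 had 584, 550 and 552 CPM, a range of 0.09, which was wider than that of 10.2% of them. The family therefore held both a gene among the most variable and one among the steadiest on the CPM scale.

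**Figure D3:**
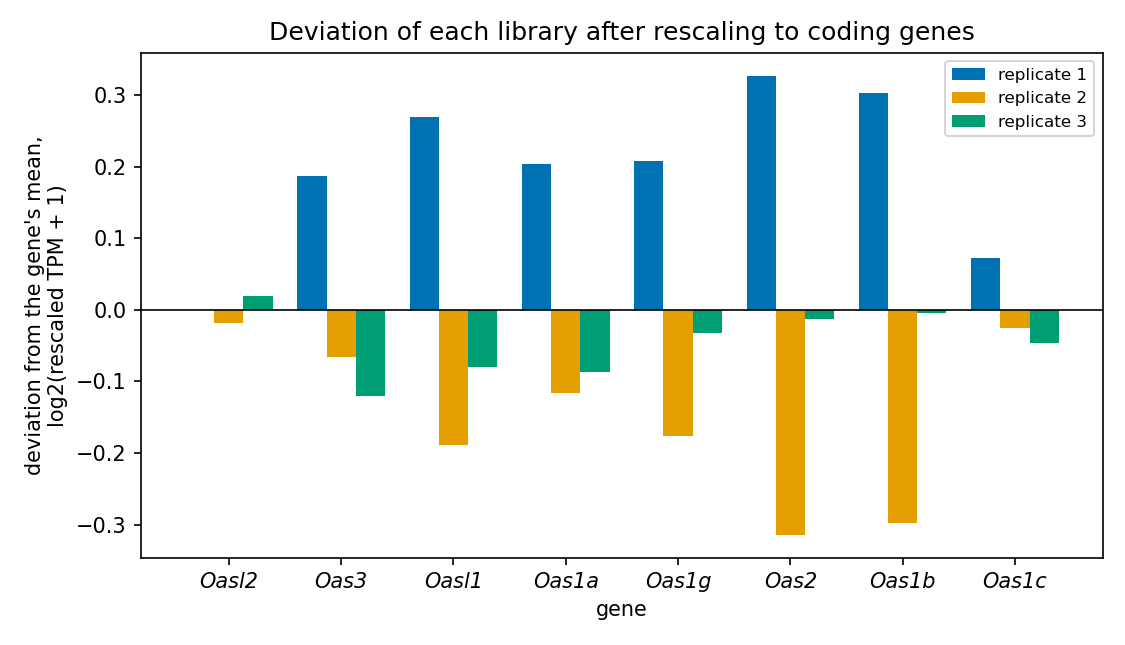
Deviation of each library from the gene's own mean, as log2(TPM + 1) after TPM was rescaled over nuclear protein-coding genes, for the 8 synthetase genes in order of level. Replicate 1 stands highest for 7 of 8 synthetase genes, by 0.33 for Oas2, while Oasl2 stays within 0.02 of its mean.

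Other genes of the interferon response were compared over the libraries in the same way, without a test of their order against that of the synthetases. Among the 7532 genes used above, 72.3% were highest in replicate 1 in TPM and 20.5% after rescaling over coding genes. Of all genes tested, 69.3% varied beyond counting error. Of 15 other interferon-stimulated genes, all were highest in replicate 1 on both scales. Of these, 15 of 15 varied beyond counting error, with a median log2 range of 0.81 in TPM. The highest by mean was Ifitm3, a membrane protein that blocks viral entry, with 1311, 832 and 903 TPM, though Cxcl10 (1497 TPM) and Ifit2 (1330 TPM) exceeded it in replicate 1. The lowest was Mx2 with 31.2, 18.0 and 21.3 TPM. This gene of the antiviral GTPases is annotated, like Oas1b, as a polymorphic pseudogene, intact in some strains and disrupted in the reference. Of 12 genes of interferon signalling, 10 were highest in replicate 1 in TPM and 7 after rescaling, and 11 varied. They ranged from Irf7, the interferon regulatory factor whose translation Oasl1 is known to restrain, at 944, 555 and 587 TPM, down to the feedback inhibitor Socs1 at 2.43, 1.39 and 1.58 TPM.

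Of 9 sensors and effectors of double-stranded RNA, all varied, 8 were highest in replicate 1 in TPM and 5 after rescaling. The shares over genes at large were 69.3%, 72.3% and 20.5%, as given above. Zbp1, a nucleic acid sensor, was highest at 220, 154 and 149 TPM, and the adaptor Ticam1 was lowest at 11.3, 11.1 and 9.88 TPM. The interferon gene Ifnb1 itself had 9.78, 5.09 and 2.06 TPM in replicates 1, 2 and 3, from 390, 252 and 90 expected counts. The synthetase sum was 787, 550 and 539 TPM in the same libraries. Whether the level of Ifnb1, the marker levels, the nuclear RNA in replicate 3 or the coding share of TPM had a part in these differences was not tested.

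The genes whose library pattern was most like the mean of the synthetases, by Euclidean distance of log2(TPM + 1) deviations over 3 libraries among 4126 genes with a mean of at least 10 TPM, were Cd53, H2-M3, Tmem219, Jak2 and Dync1i2. Their distances lay between 0.005 and 0.017. With 3 points per gene many patterns coincide, and the mean synthetase deviations were 0.37, -0.20 and -0.17 in replicates 1, 2 and 3. Cd53, a tetraspanin of leukocytes, had 232, 155 and 158 TPM, and the kinase gene Jak2 had 30.8, 20.5 and 20.6 TPM.

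The transcript tables divided the 8 genes into 33 annotated transcripts, and most of the genes had 1 dominant form. Oas1a has a single annotated transcript, Oas3-201 held 99.1% ± 0.210 of the TPM of Oas3, and Oas1c-201 held 85.7% ± 6.10 of that of Oas1c (SD, n = 3). Oasl1-202 held 83.8% ± 2.35 and Oas2-201 held 74.7% ± 4.66 of their genes. These 5 forms are annotated as protein coding, and each was also the largest form in the second tables. The largest form was the same in both sets of tables for 7 of the 8 genes, and Oas1g was the exception.

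The largest share of Oasl2, the highest gene, was assigned to a form that is not annotated as coding for the full protein. Oasl2-205, which GENCODE classes as a target of nonsense-mediated decay, held 60.7%, 61.7% and 60.6% of Oasl2 TPM in replicates 1, 2 and 3 and 50.1%, 49.0% and 49.3% in the second tables. The coding form Oasl2-201 held 27.4%, 24.9% and 24.2%, and 31.7%, 29.8% and 28.4% in the second tables. In share of TPM Oasl2-205 was the larger in every library of both sets. In counts it had 16478, 17055 and 14760 in the first set, against 12021, 11057 and 9518 for Oasl2-201. The forms were nearly equal in counts in the second set, with 14723, 14712 and 13166 for Oasl2-205 and 15040, 14413 and 12223 for Oasl2-201, and Oasl2-201 was the larger there in replicate 1. The rest differed between the sets: the short coding form Oasl2-207 held 2.71% ± 1.29 in the first and 15.1% ± 2.52 in the second (SD, n = 3). All forms of Oasl2 classed as protein coding together held 28.4% ± 1.11 in the first (SD, n = 3). In the second they held 44.9%, 48.4% and 43.2% in replicates 1, 2 and 3, nearly as much as Oasl2-205 in replicate 2.

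The forms differ at a splice junction. Oasl2-205 leaves out exon 2 of Oasl2-201, 289 bases at chr5:114899742-114900030, and its annotated coding length is 169 bases, where that of Oasl2-201 is 1524. Its annotated start lies 806 bases downstream of that of Oasl2-201. The junctions are shown because reads across them tell the forms apart, with the last bases of the shared exon in lower case and the first bases of the next exon in capitals (GENCODE M21 transcripts, plus strand). No reads across single junctions were analysed here, so the shares rest on the quantification of whole transcripts.
Oasl2-205: attaaggtggtgaagGACCTATTTCCAGAG
Oasl2-201: attaaggtggtgaagGGAGGCTCCTCGGGA

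Oas1b was assigned to the form annotated as a polymorphic pseudogene, a class for genes that are intact in some strains and disrupted in the reference. Oas1b-203 held 77.0%, 81.9% and 83.3% of Oas1b TPM in replicates 1, 2 and 3, and 73.2% ± 2.11 in the second tables (SD, n = 3). The non-coding Oas1b-202 held the rest, 19.3% ± 3.32 in the first tables (SD, n = 3). This share rests on 55.1, 29.4 and 27.6 expected counts in replicates 1, 2 and 3, against 878, 623 and 670 for Oas1b-203. The model of Oas1b-202 is short, at 558 bases against 1837, which raises its TPM relative to its counts. Oas1b-201, annotated as protein coding, was listed at 0 in every library of both sets. The models of Oas1b-203 and Oas1b-201 differ within chr5:120817649-120817703 by 3 single bases that Oas1b-201 leaves out between its exons, in a stretch that lies in the annotated coding part of both. The stretches are shown because these bases set the annotated models apart, and capitals mark the bases that Oas1b-201 lacks (GENCODE M21 transcripts, plus strand). The 0 belongs to an annotated model with single-base gaps and is not a measure of splicing.
Oas1b-203: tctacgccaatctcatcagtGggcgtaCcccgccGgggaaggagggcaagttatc
Oas1b-201: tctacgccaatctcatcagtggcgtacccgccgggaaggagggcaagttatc

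For Oas1g the tables disagreed on the main form. The coding form Oas1g-201 held 63.5%, 71.7% and 61.5% of Oas1g TPM in replicates 1, 2 and 3, but 38.4%, 38.1% and 31.7% in the second tables. Oas1g-203, classed as a target of nonsense-mediated decay with an annotated coding length of 702 bases where Oas1g-201 has 1101, held 35.3%, 27.4% and 36.9% in the first tables and 59.5%, 59.8% and 63.2% in the second. No library of one set overlapped the other for either form, so the main form of Oas1g is not settled by these tables.

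**Figure D4:**
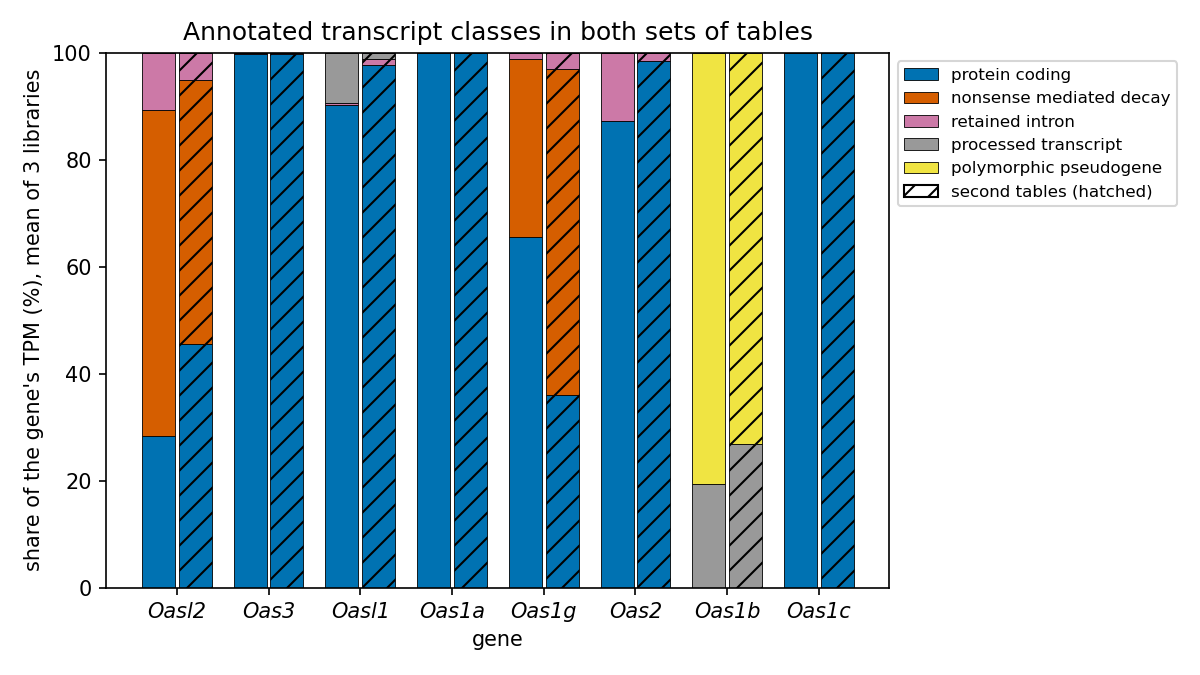
Share of each gene's TPM in each annotated transcript class, as the mean of 3 libraries, with plain bars for the first tables, which match the gene tables, and hatched bars for the second tables. Oasl2 has its largest class in nonsense-mediated decay in both sets (60.6% to 61.7% of TPM over libraries in the first, 49.0% to 50.1% in the second). In the second set its coding class is close, at 43.2% to 48.4% over libraries. Oas1g changes its largest class between the sets (nonsense-mediated decay 33.2% and 60.9%), and Oas1b has no coding class above 0.

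Transcripts classed as retaining an intron made up small shares. The 9 such transcripts of these genes were led by Oas2-204 at 12.8% ± 0.800 and Oasl2-204 at 8.92% ± 0.301 of their genes (SD, n = 3), against averages of 1.48% and 2.60% in the second tables. Of the 9, 8 had their largest share in replicate 3 in each set of tables, and the same count over all genes is not given here. The single-exon form Oasl2-208, for example, held 0.600%, 0.380% and 1.62% of Oasl2 TPM in replicates 1, 2 and 3. The exceptions were the leading forms: Oas2-204 in the first tables (13.4%, 13.1% and 11.9%) and Oasl2-204 in the second (3.41%, 1.46% and 2.94%). Some forms rest on few counts, such as Oas3-203 with 3.27, 2.63 and 7.55 expected counts in the first tables. Replicate 3 was also the library with the most nuclear RNA (Malat1 at 112, 90.6 and 452 TPM), and the part of nuclear RNA in these shares was not tested.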

How the data were processed

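The data were 3 ribosomal-RNA-depleted total RNA libraries of 1 group, with replicate numbers as in the labels. Expected counts and TPM per gene and transcript, on mm10 with GENCODE M21, were deposited by the authors, per the file headers. Each transcript's percent of its gene's TPM was deposited by the authors too. A second set of deposited transcript tables gave its own estimated counts and TPM, which were summed to genes here. What aligned and quantified the reads, and with which strand setting, is not given in the sources used here, so reads of overlapping antisense genes cannot be told apart.

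The 26345 table entries that are not genes were left out. Their share of counts was 0.378% in replicate 1, 0.0931% in replicate 2 and 0.0772% in replicate 3. For levels, limma 3.58.1 (R 4.3.3) fitted the mean of log2(TPM + 1) and compared it with log2 of 1 TPM plus the pseudocount, using trended and robust moderation, over the 20685 genes that any library listed above 0. Adding 1 TPM before the log shrinks differences between low genes. Variation over libraries was tested per gene with a chi-square test on rounded expected counts, where a gene's libraries summed to 30 or more. Both used Benjamini-Hochberg adjustment over all genes tested and a threshold of 0.05, and both scripts were tested on simulated data. A chi-square p below the smallest number the software can hold is not printed. Transcript sequences were aligned with Biopython 1.88.

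The genes, the lists around them and the tests were chosen with earlier results of these data known. Named genes were the 8 synthetases, their other 4 Oas1 paralogs, 4 genes around the 2-5A pathway, the 5 genes most like the synthetases over libraries, and the highest and lowest of each list. Further genes (Lyz2, Cd68, Csf1r, Ly6g, Ifnb1, Cxcl10, Ifit2 and Malat1), the retained-intron counts and the counts by highest library were chosen after their values were seen. Alternatives were a pseudocount of 0.1, the second tables, a higher level of 5 TPM, a filter at a mean of 10 expected counts, TPM rescaled over nuclear protein-coding genes, edgeR 4.0.16 TMM scaling, DESeq2 1.42.0 size factors, count minimums of 10 and 100, and leaving out each replicate. Some items of the lists are not reported here.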

Additional observations from a re-analysis of the deposited data

How the results depend on the processing

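All 8 genes stood above 1 TPM under the pseudocount of 0.1, the filter on mean counts and the second tables. They also did so after the rescaling over coding genes and without each replicate. Against a level of 5 TPM, 6 of 8 passed the test. Oas1b (limma, adjusted p = 0.081) and Oas1c (limma, adjusted p = 0.051) did not pass, although Oas1b had 9.39, 5.10 and 5.98 TPM in replicates 1, 2 and 3. All 8 varied beyond counting error under TMM, DESeq2 size factors, coding totals, both other count minimums and the second tables, where between 63.7% and 74.0% of all genes tested did. Between 5 and 8 did when a replicate was left out, where between 51.3% and 53.9% of all genes did. The summed level of 625 TPM was 277 TPM in the second tables and 2048 TPM after rescaling over coding genes, and lay between 545 and 669 TPM when a replicate was left out. By construction the rescaling multiplies every gene of a library alike, and the cause of the lower TPM in the second tables was not tested. The order of mean levels was the same under the second tables, the rescaling and each omission. The log2 range of all 8 genes was between 0.03 and 0.21 without replicate 1. It had to narrow, because each of the 8 was highest in replicate 1, and the range of all genes without replicate 1 is not given here. No paired analysis was possible because the series holds 1 group. Depth gave at least 495 expected counts per library for each of the 8 genes, and the number of libraries, 3, limits the precision of every SD.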

Other observations

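Antisense or unclassified genes overlap 3 of the synthetase genes on the opposite strand. Gm43069 overlaps Oas1c over 5430 bases and had 2.01, 1.07 and 2.01 expected counts in replicates 1, 2 and 3, and Gm43068 overlaps Oas2 over 1273 bases and had at most 19.0, in replicate 3. Gm13822 shares 38 bases with the start of Oasl1 and had 62.0, 38.0 and 24.0 expected counts, or 6.27, 2.96 and 2.31 TPM, with replicate 1 highest as for Oasl1. These counts are small beside those of the synthetase genes, of which the lowest was 495 for Oas1c in replicate 3.

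The ratio of TPM in the second tables to that in the gene tables lay between 0.411 and 0.517 for the 8 genes, with a median of 0.447. The ratio of Oas3 to Oas2 was nearly the same in both, at 10.1 ± 1.61 in the gene tables and 10.1 ± 1.73 in the second tables (SD, n = 3).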
